A study of Mus musculus with 21 samples.

Results

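A set of 10 genes that mark resident tissue macrophages or alternatively activated macrophages were followed through the skin and the skin-draining lymph nodes of mice that overexpress interferon kappa in the epidermis. The genes were Mrc1, Cd163, Folr2, Lyve1, F13a1, Timd4, Arg1, Retnla, Chil3 and Cbr2. They were chosen by name and found by gene symbol, which gave 10 of the 55491 genes in both the skin table and the lymph node table. All 10 passed the filter on low counts in skin, among 19101 genes tested, and 7 of the 10 passed it in lymph nodes, among 16173 genes tested.

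Resident macrophages settle in a tissue, clear dying cells and debris, and carry scavenger and uptake receptors at their surface. Interleukin-4 and interleukin-13, acting through STAT6, switch mouse macrophages to an alternatively activated state that is linked to tissue repair and that is classically read from Mrc1, Arg1, Retnla and Chil3. None of these genes is a perfect label, since Lyve1 also marks lymphatic endothelium, Chil3 is also made by myeloid cells other than macrophages, Arg1 is also made by keratinocytes, and F13a1 is also made by monocytes and platelets.

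The Ifnk TG mice carry Ifnk under the keratin 14 promoter, which is active in basal keratinocytes. The line was made on C57Bl/6 and then backcrossed to BALB/c, and WT mice were BALB/c. Skin was bulk tissue from 12-month-old mice without UV treatment, in 3 WT libraries, 2 libraries of nonlesional TG skin (TG NL) and 4 libraries of lesional TG skin (TG L). Inguinal lymph nodes, passed through a cell strainer, came from WT and TG mice without UV and from WT and TG mice after UVB, with 3 libraries in each of these 4 groups. The back was shaved and UVB was given at 250 mJ/cm2, 3 times per week for 2 weeks, and nodes were taken after 2 further weeks. The labels give 1 batch for all libraries and give no sex, body site of the skin, mouse identity or age of the node donors. A difference in site, sex or sampling depth between L skin and the other skin therefore cannot be told apart from lesion status. Nor can a difference in donor age, sex or shaving between the node groups be told apart from UV or genotype. The study counts the nodes after UV by mouse, but neither it nor the labels tie the other libraries to separate animals, so for those groups p-values measure the spread between libraries, which may be technical.

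Libraries held 40499078 to 56511276 counts in skin and 27599809 to 36428435 counts in nodes. Ifnk was at 0 counts in all 3 WT skin libraries, at 6 and 0 counts in the NL libraries and at 5 to 14 counts in the L libraries, and at 0 in all 12 node libraries, so that 1 NL library showed no Ifnk count. Skin libraries also differed in tissue make-up. The summed level of 9 hair shaft genes ran from 2.81 to 4.18 CPM (counts scaled to a common library total) in WT, 5.20 to 6.16 in NL and 1563 to 5615 in L. The sum of 8 skeletal muscle genes ran from 22111 to 31733 CPM in WT, 23745 to 26968 in NL and 20.3 to 6415 in L. The sum of 8 adipocyte genes ran from 7441 to 10962 CPM in WT and from 817 to 4270 in L. Of the genes tested, 9 of 9 hair shaft and 5 of 10 keratinocyte genes were higher in L than in WT, and 4 of 8 adipocyte, 3 of 8 muscle and 3 of 8 fibroblast genes were lower. Their part in the results on the macrophage genes was not tested. In bulk tissue, fewer macrophages and less RNA of a gene per macrophage cannot be told apart.

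The 10 genes lie on separate parts of the mouse genome and all are protein coding (GRCm38, GENCODE M21). Mrc1 (chr2:14229392-14332057) encodes the mannose receptor CD206, Cd163 (chr6:124304656-124330527) the scavenger receptor for haptoglobin-hemoglobin complexes, Folr2 (chr7:101839988-101857194) the folate receptor beta, and Lyve1 (chr7:110850607-110863239) a hyaluronan receptor. Timd4 (chr11:46810800-46844332) encodes TIM-4, a receptor for phosphatidylserine on dying cells. F13a1 (chr13:36867178-37050244) encodes the catalytic subunit of coagulation factor XIII. Arg1 (chr10:24915221-24927484) encodes arginase 1, which splits arginine into ornithine and urea. Retnla (chr16:48842551-48844461) encodes the secreted protein RELM-alpha and Chil3 (chr3:106147554-106167564) the secreted chitinase-like protein Ym1. Cbr2 (chr11:120729489-120732114) encodes a carbonyl reductase. Of all 75-base stretches of the Chil3 transcripts, 13% also occur in Chil4 or Gm6522, and 8.31% of the Cbr2 stretches occur in Gm11771, so counts of these genes are uncertain to that extent. None of the other 8 genes shared such a stretch.

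Promoter windows from RefSeq (GRCm38.p6) were found for 8 of the 10 genes, 10 windows in all, and no window was used for Lyve1 and Arg1. Of these, 3 are shown because F13a1 passed the test in lymph nodes and because Retnla and Chil3, both classic STAT6-linked genes, had the largest differences in lesional skin, in opposite directions. Each runs from 250 bases before to 30 bases after the annotated start, 5′ to 3′ on the gene's strand, with motif matches in capitals.
F13a1: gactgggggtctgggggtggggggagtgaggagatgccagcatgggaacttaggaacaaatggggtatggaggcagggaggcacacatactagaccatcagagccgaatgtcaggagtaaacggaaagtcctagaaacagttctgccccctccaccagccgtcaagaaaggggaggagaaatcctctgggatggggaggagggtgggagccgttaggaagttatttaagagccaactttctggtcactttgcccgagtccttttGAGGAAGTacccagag
Retnla: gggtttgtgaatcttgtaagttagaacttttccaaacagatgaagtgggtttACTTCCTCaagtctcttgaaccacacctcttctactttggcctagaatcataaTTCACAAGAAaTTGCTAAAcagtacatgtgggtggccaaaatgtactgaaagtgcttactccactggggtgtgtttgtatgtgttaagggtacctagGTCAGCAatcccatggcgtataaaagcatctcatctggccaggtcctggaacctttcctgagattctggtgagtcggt
Chil3: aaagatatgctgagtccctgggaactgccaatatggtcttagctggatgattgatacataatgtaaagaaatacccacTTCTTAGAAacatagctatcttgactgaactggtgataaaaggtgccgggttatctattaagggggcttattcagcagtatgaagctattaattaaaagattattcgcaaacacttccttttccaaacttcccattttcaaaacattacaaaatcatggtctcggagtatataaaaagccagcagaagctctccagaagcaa
The windows lie at chr13:37049184-37049463 on the minus strand, chr16:48842359-48842638 on the plus strand and chr3:106167535-106167814 on the minus strand. A set of 5 motifs was searched on both strands over the full window of 250 bases before and 50 after the start. They were the STAT motif TTCNNNGAA, the STAT6 motif (TTC and GAA with 4 bases between them), the PU.1 motif GAGGAAGT, the C/EBP motif TTGCNNAA and the Maf recognition motif TGCTGAC. The Retnla window held 4 of them: PU.1 at -198, STAT6 at -145, C/EBP at -134 and the Maf motif at -48. The Chil3 window held the STAT motif at -172, and the F13a1 window shown held PU.1 at 14 bases after the start. The other F13a1 window, at chr13:37050195-37050494, held none of the 5 motifs. Cbr2 held STAT6 at 24 and the Maf motif at 40 after the start, and Timd4 held the Maf motif at -45. Of 32851 windows of all genes, 8.3% held the STAT motif, 6.95% STAT6, 3.2% PU.1, 10.8% C/EBP and 4.67% the Maf motif. A match describes the letters in the window and is not evidence of binding.

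In skin, the macrophage genes formed a steep order of levels when CPM was divided by the length of each gene's merged exons in kilobases. In WT skin Retnla was the highest at 369 ± 232 CPM per kilobase (SD, n = 3), followed by Cbr2 at 83.1 ± 30.4, Folr2 at 45.2 ± 17.8, Cd163 at 38.5 ± 24.2, F13a1 at 37.7 ± 16.5, Mrc1 at 29.6 ± 13.7 and Lyve1 at 20.8 ± 11.8. Arg1 stood at 10.9 ± 1.25, Timd4 at 4.55 ± 1.71 and Chil3 at 0.0497 ± 0.0635 CPM per kilobase. The neighbours from Folr2 down to Lyve1 lay within each other's SD. Chil3 was close to absent in unlesioned skin, with 2, 0 and 8 counts in the WT libraries, where a count of 0 allows up to 3 counts.

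The first comparison asked how these genes differed between lesional TG skin and WT skin. Of the 10 genes, 2 passed the test in edgeR (adjusted p under 0.05 over all genes): Lyve1 was lower in L and Arg1 was higher. Across all genes tested, 20.2% were called lower and 23.0% higher in L, so 1 call of 10 in each direction is no more than the background. Of the 10 fold changes, 8 were negative, with a median log2 fold change of -1.38 against 0.06 over all genes.

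**Figure D1:**
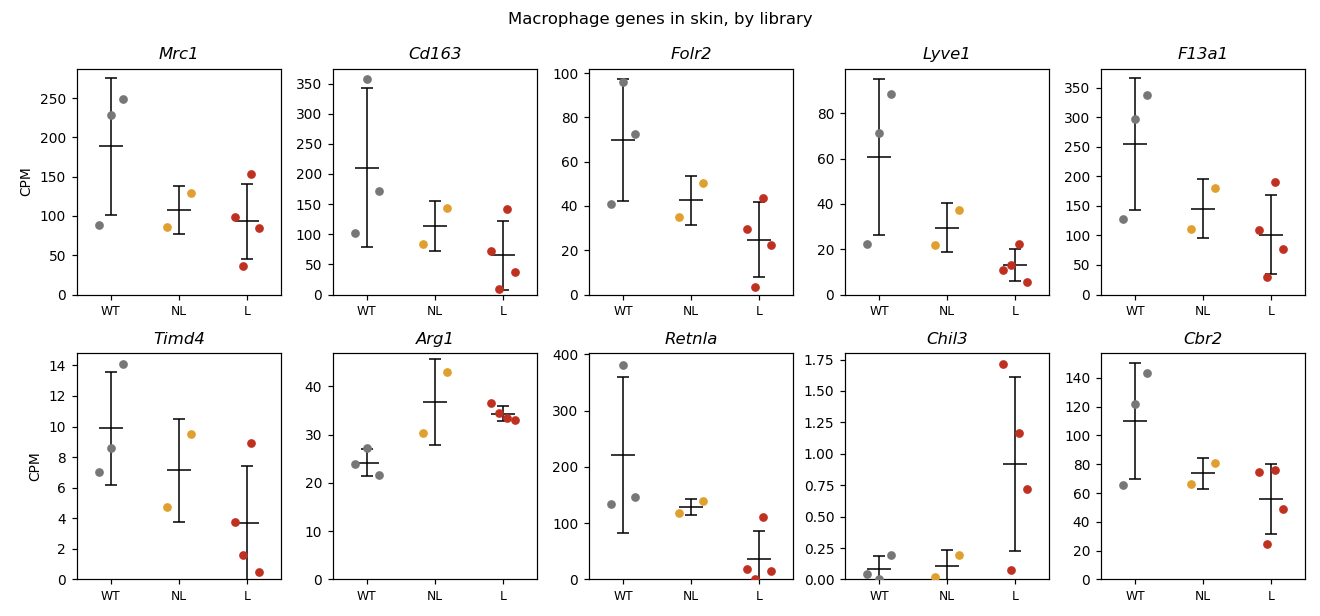
Level of each gene in CPM in every skin library of WT (n = 3), TG NL (n = 2) and TG L (n = 4); points are libraries, horizontal bars means and error bars SD, cut at 0. In the plot 8 genes have lower means in L than in WT, while Arg1 and Chil3 have higher means.

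Lyve1, the hyaluronan receptor, measured 22.28, 71.4 and 88.7 CPM in WT skin (replicates 8, 9 and 10). It measured 21.8 and 37.3 CPM in NL skin and 11.0, 13.2, 22.25 and 5.69 CPM in L skin (replicates 4 to 7). Every L library lay below every WT library, but the highest L value and the lowest WT value almost touched. The log2 fold change of L against WT was -2.22 (SE 0.56, adjusted p = 0.0138), a 4.67-fold lower level. In the lymphatic endothelium list, which includes Lyve1, 2 of 7 genes were called lower in L and none higher. Reln fell by 1.14 on the log2 scale (SE 0.28, edgeR adjusted p = 0.0104), while Prox1, the defining lymphatic transcription factor, had a log2 fold change of -0.59 (SE 0.40, edgeR adjusted p = 0.264). The summed lymphatic level ran from 133 to 239 CPM in WT and from 69.7 to 171 CPM in L, and its part in the Lyve1 result was not tested.

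Arg1 moved the other way and by little. It measured 23.9, 27.1 and 21.6 CPM in WT, 30.4 and 43.0 CPM in NL and 36.5, 34.5, 33.5 and 32.9 CPM in L. All L libraries lay above all WT libraries, within a narrow range, and the NL libraries lay on either side of them. The log2 fold change of L against WT was 0.51 (SE 0.14, edgeR adjusted p = 0.0164), or 1.42-fold, and the call was lost without WT replicate 8 (adjusted p = 0.0528) and without WT replicate 10 (adjusted p = 0.0672). The keratinocyte list, whose cells also make Arg1, summed to 9239 to 11423 CPM in WT, 16977 to 19303 in NL and 8817 to 25865 in L, and its part in the Arg1 result was not tested.

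Retnla had the largest negative difference. It measured 135, 382 and 147 CPM in WT and 119 and 139 CPM in NL, against 18.7, 1.38, 110 and 15.8 CPM in L. The level was far below all others in 3 L libraries, whereas L replicate 6 was close to the NL range. No L library overlapped WT or NL, but the spread within L was wide and the log2 fold change of -2.60 (SE 1.11) missed the threshold in edgeR (adjusted p = 0.0940). Without L replicate 6 it was -4.20 (adjusted p = 0.0114). Non-overlap of this kind was common in this comparison: in 23.4% of all genes the L libraries all lay below the lowest WT value, and in 26.0% all lay above the highest, against 2 and 1 of the 10 macrophage genes. The adipocyte genes summed to 3873, 817, 4270 and 3753 CPM in L replicates 4 to 7. Their part in the Retnla values was not tested.

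Chil3 had the largest positive difference, at very low levels. It had 2, 0 and 8 counts in WT, 1 and 8 counts in NL, and 94, 3, 53 and 40 counts in L. The counts stood above all others in 3 L libraries, and L replicate 5 fell among the WT values. The log2 fold change was 3.48 (SE 1.25, edgeR adjusted p = 0.0507), and it passed the threshold without L replicate 5 (3.87, adjusted p = 0.0170) and without WT replicate 10 (5.16, adjusted p = 0.0475). Chil4, the near-identical neighbour that shares stretches with Chil3, was listed at 0 in all 3 WT libraries and averaged 2.27 ± 3.54 CPM (SD, n = 4) in L. Neutrophil genes rose beside them, with 5 of 8 called higher in L and a summed level of 9.87 to 16.8 CPM in WT against 542, 142, 71.5 and 58.3 CPM in L replicates 4 to 7. The part of neutrophils in the Chil3 values was not tested.

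The remaining receptors and enzymes were lower on average in L than in WT, and none passed the test. Mrc1 measured 88.8, 228 and 249 CPM in WT and 98.3, 36.8, 153 and 84.4 CPM in L, with a log2 fold change of -1.02 (SE 0.49, adjusted p = 0.130). Cd163 measured 102, 357 and 171 CPM in WT and 72.7, 9.47, 142 and 36.7 CPM in L, a log2 fold change of -1.69 (SE 0.79, adjusted p = 0.121). Folr2 measured 41.1, 95.9 and 72.4 CPM in WT and 29.8, 3.33, 43.7 and 22.2 CPM in L, a log2 fold change of -1.49 (SE 0.68, adjusted p = 0.111). In all 3 genes L replicate 6 lay above WT replicate 8, and L replicate 5 was the lowest library.

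F13a1 measured 128, 296 and 338 CPM in WT and 109, 29.8, 190 and 76.9 CPM in L, a log2 fold change of -1.33 (SE 0.58, adjusted p = 0.0989). Timd4 measured 7.00, 8.57 and 14.1 CPM in WT and 3.73, 1.63, 8.90 and 0.468 CPM in L, a log2 fold change of -1.42 (SE 0.80, adjusted p = 0.186). Cbr2 measured 65.5, 122 and 144 CPM in WT and 74.3, 24.7, 76.1 and 49.0 CPM in L, a log2 fold change of -0.98 (SE 0.40, adjusted p = 0.0804). The same libraries marked the ends again: L replicate 5 was the lowest of the 9 skin libraries for 6 of the 10 genes, and L replicate 6 was the highest of the L libraries for 8 of the 10. Apart from Lyve1, which genes passed turned on single libraries. The count rose from 2 to 4 without L replicate 5 (adding Folr2 and Chil3) and to 6 without L replicate 6 (adding Cd163, F13a1, Timd4 and Retnla). It stayed at 2 without WT replicate 8, where Cbr2 passed (adjusted p = 0.0475) and Arg1 did not, and without WT replicate 10, where Chil3 passed and Arg1 did not. With all libraries kept, 43.1% of all genes were called in either direction, and the shares without a library are not given here.

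**Figure D2:**
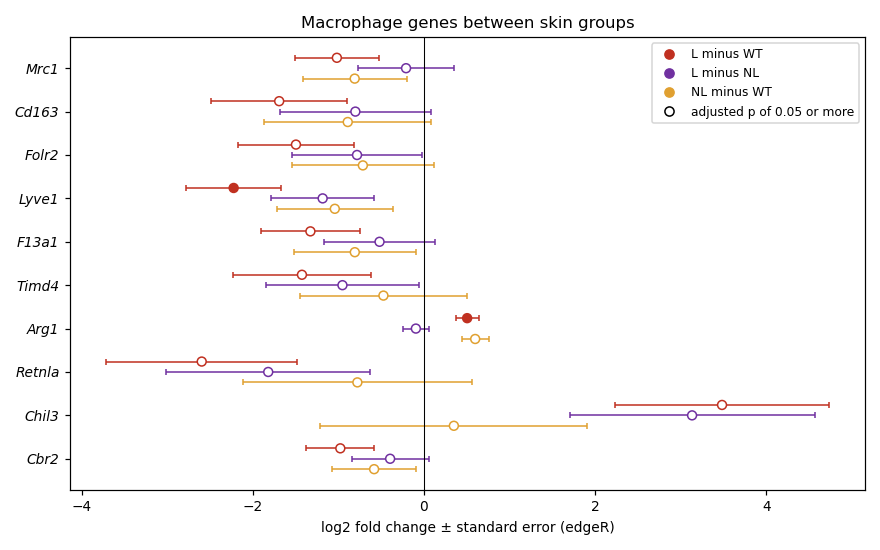
Log2 fold change (x axis) with its standard error for each of the 10 genes in the 3 skin comparisons, from edgeR; filled points passed an adjusted p of 0.05. Filled points are limited to Lyve1 and Arg1 in L against WT, and the negative values for NL against WT lie nearer to 0 than those for L against WT in 8 genes.

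The comparisons with NL skin asked what differed between lesion and nonlesional TG skin, and between nonlesional TG skin and WT skin. None of the 10 genes passed in L against NL, where 25.0% of all genes did, nor in NL against WT, where 0.00% did. NL held only 2 libraries, and in NL against WT 1465 of 19101 genes had an unadjusted p under 0.05. Chance alone gives such a p at a rate of 0.05 per gene. DESeq2 called 62 genes in NL against WT and 0 of the 10. In L against NL the log2 fold change was -1.18 for Lyve1 (SE 0.60, adjusted p = 0.187), -1.82 for Retnla (SE 1.19, adjusted p = 0.296) and 3.13 for Chil3 (SE 1.43, adjusted p = 0.141). Retnla was the one gene of the 10 whose L libraries all lay below the NL libraries, as did those of 24.7% of all genes. In NL against WT, Lyve1 had a log2 fold change of -1.04 (SE 0.68, adjusted p = 0.740) and Mrc1 of -0.81 (SE 0.61, adjusted p = 0.772). In Arg1 both NL values exceeded the 3 WT values, with a log2 fold change of 0.60 (SE 0.16, adjusted p = 0.503), as were 18.6% of all genes. The comparisons share the same libraries, so their values are not independent.

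To see how the genes stood beside macrophage RNA in general, each level was also expressed relative to 12 general macrophage genes, as log2 CPM (with a prior count of 2) minus the mean log2 CPM of that list. The list includes Adgre1, Csf1r, Cd68, Fcgr1, Mertk, C1qa, C1qb, C1qc, Aif1, Cd14 and Lyz2. This measure was added after the data had been seen. The list itself summed to 806 to 1986 CPM in WT, 715 to 979 CPM in NL and 671 to 1818 CPM in L. Of its 12 genes, 2 were called higher in L than in WT, Aif1 among them, and 1, Mertk, was called lower. Cd14 ran from 168 to 4426 counts over the skin libraries. Neutrophil genes were also higher in L, with 5 of 8 called, and the part of other cells in this list was not tested. The scale is therefore not a level per macrophage.

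**Figure D3:**
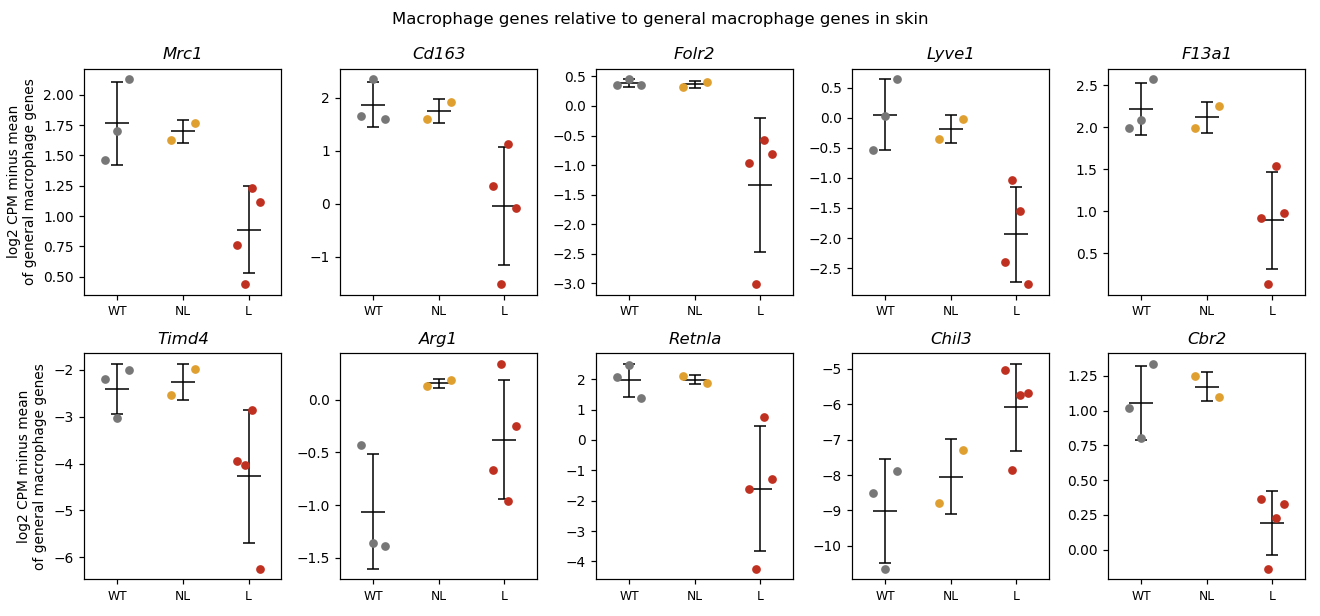
Log2 CPM of each gene minus the mean log2 CPM of 12 general macrophage genes (y axis) in every skin library; horizontal bars are means and error bars SD. In 7 panels (Mrc1, Cd163, Folr2, Lyve1, F13a1, Retnla and Cbr2) all 4 L points lie below all WT and all NL points.

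On this relative scale, the L libraries of 7 of the 10 genes all lay below the lowest WT value, against 9.13% of all genes. They were Mrc1, Cd163, Folr2, Lyve1, F13a1, Retnla and Cbr2. In CPM the share of all genes was 23.4%. Subtracting a macrophage level can narrow the spread of genes that vary with it and widen that of others. The 10 genes also do not vary independently, so no excess is read from counts on this scale. Folr2 was the tightest outside lesions, at 0.39 ± 0.06 (SD, n = 3) in WT and 0.37 ± 0.06 (n = 2) in NL, against -1.34 ± 1.13 (n = 4) in L. Cbr2 was at 1.05 ± 0.27 in WT, 1.17 ± 0.10 in NL and 0.19 ± 0.23 in L. Mrc1 was at 1.77 ± 0.34, 1.70 ± 0.09 and 0.89 ± 0.36, and F13a1 at 2.22 ± 0.31, 2.12 ± 0.19 and 0.89 ± 0.58 in the same groups. For these 4 genes the WT and NL libraries overlapped and the L libraries stood below both. Lying below NL was the commoner pattern among all genes. In 4200 of the 19101 genes tested every L library lay below every NL library on this scale, against 1744 for WT. Of the 10 macrophage genes 8 did so for NL, the 7 named above and Timd4.

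Lyve1 was at 0.05 ± 0.59 in WT and -1.94 ± 0.79 in L, Cd163 at 1.87 ± 0.42 and -0.04 ± 1.11, and Retnla at 1.96 ± 0.55 and -1.61 ± 2.06. Timd4 overlapped between L and WT, and Arg1 and Chil3 were not lower, with Arg1 at -1.06 ± 0.55 in WT and -0.38 ± 0.56 in L. The same 7 genes stood apart when the summed CPM of the list was used, and when the 3 called list genes were left out. No fit with a p-value was made on this scale, because the choice of reference genes came after the values were known.

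Genes related in function were read from lists, with counts called in L against WT and the same background of 23.0% higher and 20.2% lower. Of 16 further resident macrophage genes, 5 were called lower and 2 higher, with a median log2 fold change of -1.13. Cd36, a scavenger receptor for lipids, fell by 1.79 on the log2 scale, Pf4, a chemokine shared with platelets, by 1.77 and Gas6, a ligand that bridges dying cells to MERTK, by 1.59. Slc40a1, the iron exporter ferroportin, rose by 2.34. Of 16 alternative activation genes, 6 were called higher and 5 lower, with a median of 1.02. Pdcd1lg2, which encodes PD-L2, rose by 3.89, the chemokine gene Ccl17 by 3.35 and Clec7a, the receptor dectin-1, by 2.64, while Tgm2, a transglutaminase, fell by 2.00. Levels were very low for Pdcd1lg2, with 2 to 91 counts over the skin libraries, and for Ccl17, with 0 to 71. The genes of both lists are also expressed by dendritic cells and other cells of skin. Of 8 adipocyte genes, 4 were called lower and 0 higher, and their part in the Cd36 value was not tested.

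Signals and enzymes around Arg1 and Retnla were also measured. Of 16 genes of IL-4 and IL-13 signaling, 3 were called higher and 4 lower, with Il13 rising by 1.94 and the decoy receptor Il13ra2 by 1.10, and Pparg falling by 1.19 and Irf4 by 1.16. Il13 had only 4 to 38 counts over the skin libraries. The part of the adipocyte genes in the Pparg value was not tested. Stat6 had a log2 fold change of 0.05 (SE 0.09, edgeR adjusted p = 0.693). Of 10 genes of arginine metabolism, 6 were called higher and 3 lower. Arg2, the mitochondrial arginase, rose by 2.31, Ass1, which makes arginine from citrulline, by 2.83 and the arginine transporter Slc7a1 by 1.87, while the transporter Slc7a2 fell by 1.78. Set beside Arg1 at 0.51, Arg2 had the larger log2 fold change.

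**Figure D4:**
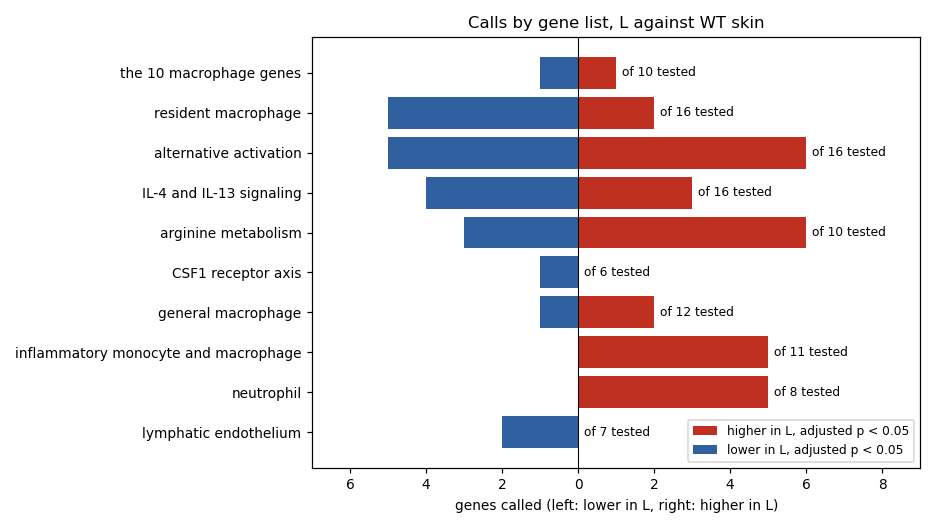
Number of genes called in L against WT skin in each list, lower to the left and higher to the right, with the number tested beside each bar; calls are edgeR with an adjusted p under 0.05. The inflammatory and neutrophil lists have calls only to the right, whereas the 10 macrophage genes have 1 on each side.

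Of 11 inflammatory monocyte and macrophage genes, 5 were called higher in L and none lower, with a median log2 fold change of 1.92. Il12b rose by 5.72, Il1b by 5.53, Fpr2 by 3.06 and Tnf by 2.39. Il12b was at a very low level, with 0 to 62 counts over the skin libraries. With 1 library left out, Il12b stayed called in 9 of 9 fits, Fpr2 in 7, Il1b in 6 and Tnf in 2. Without L replicate 4 the log2 fold change was 2.68 for Il1b, 2.35 for Fpr2 and 1.62 for Tnf, and without WT replicate 10 it was 3.95 for Fpr2. With no filter on low counts Il1b (adjusted p = 0.0819) and Tnf (adjusted p = 0.0747) were not called, nor was Tnf with the compared groups alone (adjusted p = 0.0570). The summed level of the list was 114, 129 and 80.5 CPM in WT and 596, 75.2, 210 and 104 CPM in L replicates 4 to 7, so L replicate 5 lay below all WT libraries and L replicate 7 among them. Of 6 genes of the CSF1 receptor axis, which maintains macrophages, 1 was called: Il34, the keratinocyte-derived ligand of CSF1R, fell by 1.29. Of 7 genes of lymph node sinus macrophages measured in skin, Cd5l fell by 3.77, Cd209b by 2.51 and Itga2b rose by 0.95. Of 13 paralogs of the 10 genes, 4 were called higher and 2 lower. Chil1 rose by 4.38 (5.80 without WT replicate 10), Havcr1, a relative of Timd4, by 2.74 and Retn, the adipocyte relative of Retnla, fell by 2.00. Retnlb, another relative, had 0 counts in all skin and node libraries. Levels were low for Cd5l, with 3 to 168 counts over the skin libraries, and for Havcr1, with 2 to 50. Interferon response genes were called higher in 3 of 10 cases and T cell genes in 3 of 6, and no B cell or erythroid gene was called in either direction. Of 3 eosinophil genes tested, 1 was called: Siglecf fell by 1.18 (edgeR adjusted p = 0.0499), a call that held in 2 of 9 fits with 1 library left out.

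The genes whose pattern over the 9 skin libraries was nearest to each member were found by the root mean square of differences in centred log2 CPM. Nearest to Cd163 was Folr2, at 0.31, followed by Cd209g at 0.34. Nearest to F13a1 were Capn9 at 0.16 and Clec10a at 0.20, to Lyve1 Mgl2 at 0.33, and to Mrc1 Ifi211 at 0.20 and Cbr2 at 0.21. Nearest to Arg1 were Gm9616 and Tead3, each at 0.13, and nearest to Chil3 Tigit at 0.79. The distances for Retnla began at 0.65 (Cyp2e1), for Timd4 at 0.58 (Ms4a8a) and for Cbr2 at 0.16 (Gm2026). In nodes, Mrc1 was nearest to Clec4n at 0.18 and Timd4 at 0.22, and Timd4 to Apoe and C1qa, both at 0.17.

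In lymph nodes the order of the levels was different. In WT nodes without UV, Timd4 stood at 10.1 ± 1.10 CPM per kilobase (SD, n = 3), far above Lyve1 at 0.840 ± 0.144, Cbr2 at 0.634 ± 0.237, Mrc1 at 0.421 ± 0.104, Folr2 at 0.357 ± 0.210, Cd163 at 0.225 ± 0.077 and F13a1 at 0.114 ± 0.045. Of neighbours in this order, Mrc1 and Folr2 lay within each other's SD, while Lyve1 and Cbr2, Cbr2 and Mrc1, and Folr2 and Cd163 were apart by less than the larger of their SDs. Arg1, Chil3 and Retnla were barely detected. Arg1 had 0 to 3 counts, Chil3 0 to 5 and Retnla 0 to 7 in the 12 node libraries, so they were not tested, and a difference in them was not detectable at this depth.

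The node comparisons asked how these genes differed by UV and by genotype. Averaged over both genotypes, F13a1 was lower 2 weeks after UV and was the one member called, with 3.80% of all genes called lower and 4.81% higher. It had 25, 15 and 35 counts in WT nodes and 35, 45 and 37 counts in TG nodes without UV. After UV it had 5, 8 and 12 counts in WT nodes and 11, 7 and 14 counts in TG nodes. In CPM, the highest of the 6 libraries after UV lay below the lowest of the 6 without UV, as it did for 1.93% of all genes. The log2 fold change was -1.61 (SE 0.31, edgeR adjusted p = 0.0144), or 3.04-fold lower.

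Within genotypes the F13a1 difference was similar in size but did not pass: -1.50 in WT (SE 0.44, adjusted p = 0.0648), where 4.98% of all genes were called, and -1.71 in TG (SE 0.42, adjusted p = 0.222), where 0.00% were. The libraries did not overlap in either genotype, as for 17.3% of all genes in WT and 7.11% in TG. The UV effects in WT and TG differed by -0.21 (SE 0.62, adjusted p = 0.961), and 0.00% of all genes were called in that interaction test. Relative to the general macrophage genes, F13a1 ran from -3.57 to -2.20 without UV and from -4.75 to -3.30 after UV in WT, which overlapped. In TG it ran from -2.90 to -2.27 without UV and from -4.00 to -3.87 after UV, which did not, as for 2.63% of all genes. On the same scale Lyve1 ran from -1.34 to -1.13 without UV and from -1.63 to -1.50 after UV in WT without overlap, as for 2.81% of all genes, and overlapped in TG. DESeq2 called 132 genes, and edgeR none with 1507 at an unadjusted p under 0.05, for UV in TG. In the interaction, 881 of the 16173 genes tested had an unadjusted p under 0.05, and DESeq2 called 5. Chance alone gives such a p at a rate of 0.05 per gene.

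**Figure D5:**
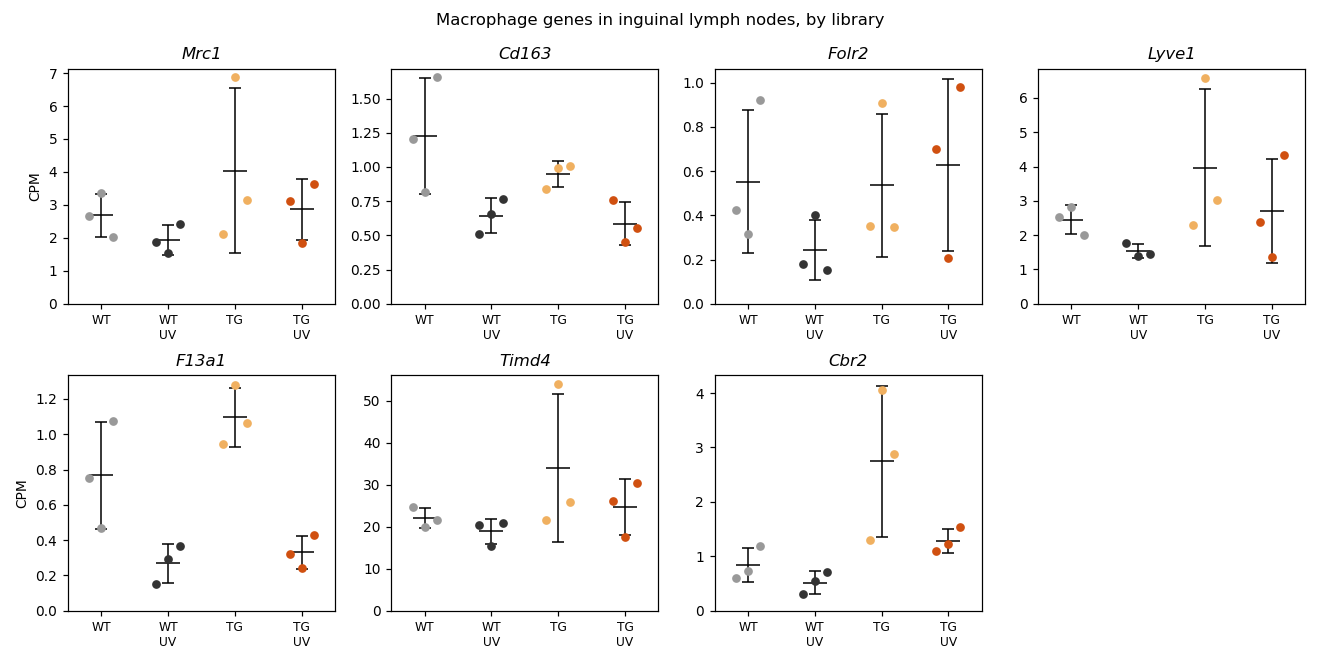
Level in CPM of the 7 tested genes in every lymph node library, by genotype and UV; points are libraries, horizontal bars means and error bars SD (n = 3). F13a1 is lower after UV in both genotypes without overlap, and Cbr2 is higher in TG than in WT within each treatment.

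The other 6 genes had negative values after UV over both genotypes, and none passed. Cd163 was at 1.21, 0.815 and 1.66 CPM in WT and 0.838, 0.993 and 1.01 CPM in TG without UV, against 0.511, 0.654 and 0.766 CPM in WT and 0.756, 0.452 and 0.551 CPM in TG after UV. Its groups did not overlap, and the log2 fold change was -0.80 (SE 0.25, adjusted p = 0.0597). It was called by DESeq2 (adjusted p = 0.0446) and by edgeR with at least 10 counts in every library (adjusted p = 0.0414). The log2 fold change was -0.90 for Cbr2 (SE 0.31, adjusted p = 0.0837), -0.61 for Lyve1 (SE 0.30, adjusted p = 0.198), -0.48 for Mrc1, -0.47 for Folr2 and -0.34 for Timd4. The median over the 7 genes was -0.61, against 0.01 over all genes. All 12 general macrophage genes had negative values too, with a median of -0.21, and none of them was called.

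Genes of other cells moved with UV in the nodes. Of 5 erythroid genes tested, 5 were called lower after UV, and their summed level ran from 121 to 262 CPM in WT and 261 to 303 CPM in TG without UV, against 10.8 to 39.5 CPM and 26.1 to 159 CPM after UV. Of 8 fibroblast genes, 4 were called lower, with sums of 51.3 to 119 CPM without UV and 15.2 to 59.8 CPM after UV. Lymphatic endothelium genes summed to 55.7 to 149 CPM without UV and 18.1 to 64.8 CPM after UV, with 1 of 7 called, Reln, which rose by 1.02. Genes of platelets, which also hold F13a1 protein, summed to 1.57 to 3.49 CPM without UV and 1.04 to 2.01 CPM after UV, and the 1 gene tested was not called. Their part in the F13a1 result was not tested. Among genes of the related lists, Nos2 fell by 1.82, Tgm2 by 0.73, Spic by 0.66, Ccl22 by 0.63 and Il33 by 1.38, and Tnf rose by 0.81. Nos2 was at a very low level, with 2 to 31 counts over the node libraries. With 1 library left out, Nos2, Tgm2 and Ccl22 stayed called in 12 of 12 fits, Spic in 4, Reln and Tnf in 3 and Il33 in 2. With no filter on low counts Il33 (adjusted p = 0.0959) and Tnf (adjusted p = 0.0569) were not called.

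Between genotypes, Cbr2 had the largest difference of the 7 genes without UV and averaged over treatments, and Folr2 had the largest after UV, at 1.39 (SE 0.66, edgeR adjusted p = 0.715) with overlapping libraries. Cbr2 had 20, 23 and 39 counts in WT and 48, 143 and 100 counts in TG nodes without UV, and 10, 15 and 23 counts in WT and 38, 35 and 50 counts in TG nodes after UV. Within each treatment every TG library was above every WT library in CPM, as for 5.52% of all genes without UV and 5.39% after UV. Averaged over treatments, the log2 fold change of TG against WT was 1.51 (SE 0.31, unadjusted p = 0.000298 in edgeR), which did not survive the adjustment (adjusted p = 0.438). It was 1.70 without UV (SE 0.43, adjusted p = 1) and 1.31 after UV (SE 0.45, adjusted p = 0.673). DESeq2 gave an adjusted p of 0.0131 over both treatments. The UV effects on Cbr2 in WT and TG differed by -0.39 (SE 0.63, edgeR adjusted p = 0.915).

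Relative to the general macrophage genes, Cbr2 also stood higher in every TG than in every WT library within each treatment, at -3.18 to -2.05 in WT and -1.94 to -0.89 in TG without UV, and -3.98 to -2.47 and -2.35 to -1.93 after UV, as for 1.50% and 0.519% of all genes. Timd4 did so without UV, at 1.66 to 2.05 in WT and 2.06 to 2.44 in TG, but not after UV. With the summed CPM of that list in place of the mean, the libraries without UV overlapped for both genes. Across all genes, 0.00% were called for genotype without UV, 0.00% after UV and 0.00618% over both treatments, which was 1 gene. Unadjusted, 549, 1131 and 754 of the 16173 genes had a p under 0.05 in these tests, and DESeq2 called 2, 18 and 10. Chance alone gives such a p at a rate of 0.05 per gene, so the unadjusted counts are not read as a genotype effect.

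In CPM, the libraries of the other 6 genes overlapped between genotypes within each treatment. Over both treatments the log2 fold change of TG against WT was 0.75 for Lyve1 (SE 0.30), 0.67 for Folr2 (SE 0.45), 0.58 for Mrc1 (SE 0.28), 0.50 for Timd4 (SE 0.22), 0.41 for F13a1 (SE 0.31) and -0.25 for Cd163 (SE 0.25), and each had an adjusted p of 1.00. TG node replicate 5, without UV, was the highest of the 12 node libraries for 5 of the 7 genes, with Timd4 at 54.1 CPM against 15.5 to 30.5 CPM in the other 11 libraries. The same library had the highest summed general macrophage level, 618 CPM, and the highest lymphatic and fibroblast levels, 149 and 119 CPM. Without it, the log2 fold change over both treatments was 0.47 for Lyve1, 0.27 for Mrc1, 0.25 for Timd4 and 1.31 for Cbr2.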

How the data were processed

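Bulk poly-A RNA sequencing was analysed from 9 skin and 12 inguinal lymph node libraries. Per the labels and the study's methods, the authors aligned reads to GRCm38 with STAR 2.7.8a and estimated expected counts per gene with RSEM 1.3.3, and the submitters' processing notes also name cutadapt 4.8, FastQC 0.11.8 and MultiQC 1.20. The deposited expected counts were rounded to whole numbers in the files. Reads shared by near-identical genes are split by RSEM's estimate, which can move counts between such copies. Coordinates and exon lengths (all exons of a gene merged) were taken from GENCODE M21.

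Each tissue was fitted by group with edgeR 4.0.16 (R 4.3.3, limma 3.58.1), using TMM factors, the default filter on low counts (minimum count 10, minimum total 15), a robust quasi-likelihood fit and the F-test. P-values were adjusted by the Benjamini-Hochberg method over all genes of a comparison, and an adjusted p under 0.05 was called. Every adjusted p in the text without another tool's name comes from this fit. CPM were computed with the TMM-scaled totals. Standard errors were derived from the F statistic. The fit was tested on simulated data.

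All groups of a tissue shared 1 estimate of the spread. Interaction and averaged contrasts were used in nodes. Alternatives were DESeq2 1.42.0, RLE factors, no filter, at least 10 counts in every library, the compared groups alone, TMM without keratin, hair, fat and muscle genes (skin), and each library left out in turn. The study itself used DESeq2. Intervals and limits at 0 counts (3 counts) cover counting error only. No pair of replicates agreed within sampling noise.

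All 10 macrophage genes are named. From each other list up to 4 called genes with the largest absolute log2 fold change are named, plus near-identical paralogs and the nearest genes by pattern (2 per gene and tissue, not all printed). Some genes that this rule or the lists hold are not reported here. Prox1, Stat6 and Ifnk, and genes beside them outside this rule, were named after their values were seen. The members and lists were chosen with earlier results of these data known.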

Additional observations from a re-analysis of the deposited data

Results flagged for a closer look

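In lesional skin, Retnla in replicate 6 stood apart from the other 3 L libraries, at 110 CPM against 1.38 to 18.7 CPM. Its gap to the next library was 0.841 of the group's range, above Dixon's 95% critical value for 4 samples. Only the L group has 4 libraries, so 10 genes were examined in this way and 1 was past the value, where chance flags about 1 in 20. The same library was the highest of the L libraries for 8 of the 10 genes. Retnla in L against WT was called without it and not with it. The effect of UV differed between TG and WT nodes in none of the 7 genes tested by the edgeR interaction term.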

How the results depend on the processing

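No paired analysis was possible because the replicate numbers are sample numbers that no 2 groups of a tissue share. In L against WT, 2 of the 10 genes were called in edgeR and 5 in DESeq2, which added F13a1, Chil3 and Cbr2 and gave no adjusted p for Retnla. In edgeR 43.1% of all genes were called in either direction. The shares in DESeq2 and with 1 library left out are not given here, so no excess is read from those counts of members. Lyve1 stayed called under every alternative listed in the methods, with adjusted p up to 0.0492, and Arg1 lost its call only without WT replicate 8 or 10. Leaving out 1 library gave 2 to 6 of the 10 in L against WT and 0 to 1 in L against NL, where Retnla passed without L replicate 6. Genes called in L against NL were 4782, or 3156 with the compared groups alone and 1182 to 5187 with 1 library left out. The lowest of these counts left out an NL library (1182 without replicate 3, 1470 without replicate 2). In NL against WT DESeq2 called 62 genes and the compared groups alone gave 1.

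In nodes, DESeq2 called 1967 genes for UV in WT against 805 in edgeR, 132 for UV in TG, 2407 against 1393 for UV over both genotypes, 2, 18 and 10 for genotype without UV, after UV and over both, and 5 in the interaction. For genotype after UV, no filter gave 1 gene. The compared groups alone gave 2431 genes for UV in WT. F13a1 for UV over both genotypes stayed called in every fit that could be made, with adjusted p up to 0.0414 when 1 library was left out, but it did not pass the filter of at least 10 counts in every library. Of the 7 genes, DESeq2 called 2 for UV over both genotypes (F13a1 and Cd163, the latter also called with at least 10 counts in every library), 1 for genotype over both treatments (Cbr2) and 1 for UV in WT (F13a1), and the compared groups alone also called 1 for UV in WT (F13a1). With 1 library left out, genes called ran from 0 to 2644 for UV in WT, 0 to 236 for UV in TG, 373 to 3790 for UV over both, 0 to 1 for genotype without UV, 0 to 2 after UV, 0 to 3 over both and 0 to 1 in the interaction. The highest UV counts came without TG UV replicate 12, and the lowest without WT UV replicate 8. Members called ran from 1 to 4 for UV over both and 0 to 1 for UV in WT.

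Signs of values that had not passed turned when 1 library was left out. With 1 library left out, the log2 fold change of L against NL ran from -0.55 to 0.12 for Mrc1 (positive without NL replicate 3 and, at 0.06, without L replicate 5) and from -0.32 to 0.19 for Arg1 (positive without NL replicate 3). That of NL against WT ran from -1.96 to 2.03 for Chil3 (negative without NL replicate 3 and, at -0.23, without WT replicate 9). The interaction ran from -0.52 to 0.11 for F13a1 (positive without WT UV replicate 9 and, at 0.04, without WT replicate 2), from -0.019 to 0.47 for Cd163 (negative without WT replicate 3) and from -0.72 to 0.024 for Cbr2 (positive without TG replicate 5). The causes were not tested. Groups of 2 to 4 libraries and, in nodes, counts of 5 to 45 for F13a1 limit what could be detected.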
